A study of Rattus norvegicus with 6 samples.

Results

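Small leucine-rich proteoglycans were followed in the myocardium of sham-operated rats and of rats after 30 min of ischemia. The genes were chosen by symbol: Omd, Dcn, Lum, Bgn, Fmod, Ogn, Aspn, Prelp, Podn and Chad. The set was drawn up because Omd, the gene of osteomodulin, had no counts in any ischemia sample, so the Omd counts are given as a description without a test. Of the 10 symbols, 9 had a row among the 32623 rows of the table, and Podn was not matched under its symbol. All 9 rows passed the filter on low values, a mean of at least 0.5 FPKM (fragment counts scaled to gene length and library size) over the 6 samples, which kept 13964 genes in all. Omd, Aspn and Chad had a mean under 0.5 FPKM in ischemia and passed through their sham samples, so counts and medians over the members are descriptions.

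The sham group held 3 samples from male rats of WT genotype, for which a left thoracotomy is described and no ligation. The ischemia group held 3 samples from male WT rats with the left anterior descending coronary artery tied. Both groups were labelled 30 min, and the tissue was labelled myocardial without the part of the heart. RNA came from whole tissue, in which fewer cells of a type and less RNA per cell cannot be told apart.

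Small leucine-rich proteoglycans are secreted proteins with a curved core of leucine-rich repeats, most of which carry chondroitin, dermatan or keratan sulfate chains. They bind collagen fibrils and set their diameter and spacing, and several also bind growth factors such as TGF-β. In the heart they are made mainly by fibroblasts and valve interstitial cells and lie in the interstitial collagen network.

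Samples held between 68529126 and 79591989 counts, a depth at which 3 counts equal 0.0377 to 0.0438 CPM (counts scaled to library size). Some libraries stood apart from their group. The summed FPKM of 5 atrial markers was 48344 and 39345 in sham replicates 1 and 3 but 216 in sham replicate 2, and 9610, 2078 and 1279 in ischemia replicates 1 to 3. Most of the last 2 sums was Nppa, and the other 4 markers summed to 15119, 148 and 14234 in sham and 2180, 27.4 and 28.4 in ischemia, so that sham replicate 2 lay below ischemia replicates 2 and 3 with Nppa and above them without it. Ventricular cardiomyocyte markers were abundant in every sample, with summed FPKM of 8 genes between 12464 and 45058, most of it from genes that atrial muscle also uses. The ventricular light chain genes differed within sham, with an FPKM of 366, 2795 and 346 for Myl2 and of 796, 9024 and 1021 for Myl3 in replicates 1 to 3. In ischemia these were 1315, 594 and 1238 for Myl2 and 5691, 3180 and 5780 for Myl3. Sham replicates 1 and 3 were thus high in atrial markers and low in both light chain genes, and sham replicate 2 the reverse. All rats were described as male, but 3 Y-linked genes together had only 4 counts in sham replicate 1 and 1762 to 4358 elsewhere. Fold changes are therefore also given with libraries left out.

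In the GRCr8 assembly Omd, Ogn and Aspn lie side by side on chromosome 17, and Lum lies on chromosome 7. By the positions of the deposited table, Lum lies close to Dcn. The 250 bases before the start of 4 of these genes are shown because the chromosome 17 genes have a pair of rows each in the table and Lum had the lowest fold change among the members with counts in both groups. The sequences are from RefSeq on that assembly (GRCr8), whose coordinates are not those of the deposited table. Capitals mark TATAAA and CCAAT on either strand.
Omd, chr17:15274871-15275120, minus strand: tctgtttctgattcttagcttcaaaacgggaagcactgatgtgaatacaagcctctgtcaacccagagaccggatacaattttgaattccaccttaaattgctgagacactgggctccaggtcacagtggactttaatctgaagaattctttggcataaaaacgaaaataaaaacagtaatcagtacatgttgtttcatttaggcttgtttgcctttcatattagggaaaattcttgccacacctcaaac
Ogn, chr17:15258996-15259245, minus strand: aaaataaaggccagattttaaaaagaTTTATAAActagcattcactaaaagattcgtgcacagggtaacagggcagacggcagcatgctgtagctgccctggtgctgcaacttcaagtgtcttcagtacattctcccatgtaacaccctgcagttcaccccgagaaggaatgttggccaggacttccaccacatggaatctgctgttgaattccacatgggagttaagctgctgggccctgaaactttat
Aspn, chr17:15310470-15310719, minus strand: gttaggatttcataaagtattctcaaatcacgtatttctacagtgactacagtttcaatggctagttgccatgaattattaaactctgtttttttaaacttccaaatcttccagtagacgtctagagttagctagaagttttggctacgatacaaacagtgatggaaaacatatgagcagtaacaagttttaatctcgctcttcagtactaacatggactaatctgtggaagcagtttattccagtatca
Lum, chr7:34245456-34245705, plus strand: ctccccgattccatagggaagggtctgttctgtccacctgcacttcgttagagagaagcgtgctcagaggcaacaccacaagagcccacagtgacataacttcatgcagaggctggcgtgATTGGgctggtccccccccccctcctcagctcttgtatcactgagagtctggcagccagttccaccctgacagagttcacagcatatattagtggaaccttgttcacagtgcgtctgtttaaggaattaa
Of the 10 members, 7 had an entry. TATAAA stood in 2 of the 7 (Ogn and Chad) and in 12.9% of 33469 promoters, and CCAAT in 2 (Lum and Fmod) and in 34.0%. The letters TGANTCA, searched on both strands, stood in 0 of the 7 and in 6.34% of all promoters. In the sequence of Ogn the capitals cover a pair of overlapping TATAAA matches on opposite strands, far from the gene start.

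Osteomodulin, a keratan sulfate proteoglycan best known from bone and tooth matrix, was covered by 330, 91 and 555 counts in sham replicates 1 to 3 and by 0 in each ischemia replicate. The row of Omd, ENSRNOG00000046658, spans positions 14635184 to 14637832 of chromosome 17, minus strand. In FPKM, sham stood at 2.27, 0.586 and 4.01. The groups did not overlap, and sham replicate 3 was 6.84 times sham replicate 2. Set against 3 counts in each ischemia library, the row was at least 111-fold lower in ischemia, and at least 71.8-fold without sham replicate 3.

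A zero on this row was not a zero for osteomodulin. The table holds another row described as osteomodulin, LOC103690116, which spans positions 15475710 to 15484269 of the same strand. It had 364, 98 and 617 counts in sham and 52, 9 and 23 in ischemia. In sham the Omd row took 47.6%, 48.1% and 47.4% of the counts of both rows, so both had almost the same number of counts. In ischemia it took 0% of 52, 9 and 23 counts, for which the upper ends of the exact 95% binomial intervals are 6.85%, 33.6% and 14.8%. The sham intervals began at 40.8% or above. These intervals cover counting error only, and since the zeros of the Omd row chose the set, the shares are a description and test nothing between the groups. Why the Omd row had no counts in ischemia while the other row had some was not tested.

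Summed over both rows, osteomodulin was at 9.11, 2.89 and 15.9 CPM in sham and 0.643, 0.112 and 0.345 CPM in ischemia. The groups did not overlap, and the lowest sham value was 4.49 times the highest ischemia value. The mean was 25.4-fold lower in ischemia, which is a value rather than a bound because every library had counts. It was 16.4-fold without sham replicate 3 and 40.7-fold without ischemia replicate 1. The sums include the zeros of the Omd row, which chose the set, so these folds are descriptions and test nothing. LOC103690116 alone, which did not choose it, had an FPKM of 2.23, 0.56 and 3.98 in sham. In ischemia that row had 0.292, 0.0536 and 0.149, a smaller fall. Among all tested genes, 2 had 0 counts in every ischemia library and at least 91 in every sham library, Omd and Cpne1, and 5 had the reverse pattern. A looser pattern, a library at 0 beside a library of the same group at 100 or more, was found for 186 tested genes (1.33%).

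The neighbours of Omd also had a pair of rows each. The file lists a stretch with NEWGENE_1308171 (described as osteoglycin), Omd, Aspnl1 (asporin-like 1) and LOC100910978, and farther along the chromosome a stretch in the same order with Ogn, LOC103690116, Aspn and LOC100910978 again. LOC100910978, which the file describes as extracellular matrix protein 2-like, had 0 counts in all samples in the stretch of Omd, and 1714, 593 and 1796 counts in sham and 332, 102 and 58 in ischemia in the stretch of Ogn. The RefSeq table of GRCr8 holds 1 entry each for Ogn, Omd, Aspn and Ecm2 on chromosome 17, with Aspnl1 as a synonym of Aspn. Values of the Omd, Ogn and Aspn rows are therefore uncertain to the extent that reads could be placed in either stretch.

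**Figure D1:**
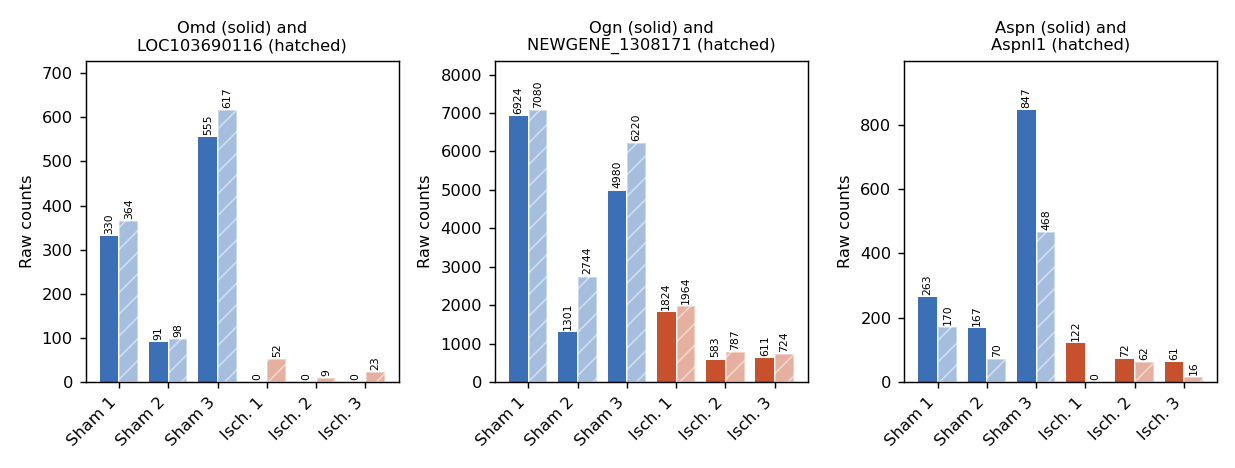
Raw counts (bars from 0, labelled) of the member row (solid) and of its copy row (hatched) in each sample, sham in blue and ischemia in orange. The Omd row has 0 counts in all 3 ischemia samples while LOC103690116 has 52, 9 and 23.

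Osteoglycin, encoded by Ogn (chromosome 17, 15447716 to 15467359, minus strand), is also called mimecan and is a small matrix proteoglycan of connective tissue. Its FPKM was 60.7, 10.7 and 45.9 in sham, against 14.8, 5.18 and 5.74 in ischemia. The groups overlapped because sham replicate 2 lay below ischemia replicate 1. The log2 fold change of the Ogn row was -2.19 ± 0.68 (SE), with an adjusted p of 0.0895 in edgeR. Without sham replicate 1 it was -1.75, without sham replicate 2 -2.61, and without ischemia replicate 1 it was -2.87 and passed (edgeR adjusted p 0.0439). The copy row NEWGENE_1308171 had 7080, 2744 and 6220 counts in sham and 1964, 787 and 724 in ischemia, with no overlap. Its log2 fold change was -2.29 ± 0.48 (edgeR adjusted p 0.0458), and it passed. It did not pass without sham replicate 1, 2 or 3 or ischemia replicate 3, where 0 genes were lower. Summed over both rows, the log2 fold change was -2.24 ± 0.56 (edgeR adjusted p 0.0594), the groups did not overlap, and the call was lost. The Ogn row held 49.4%, 32.2% and 44.5% of the summed counts in sham and 48.2%, 42.6% and 45.8% in ischemia. Sham replicate 2 had the lowest share, and no library lost a row. Both osteoglycin rows thus kept counts in ischemia, unlike the osteomodulin rows.

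Asporin, encoded by Aspn (chromosome 17, 15495790 to 15519282, minus strand), is a relative of decorin with a stretch of aspartate residues and is known as an inhibitor of TGF-β. Its FPKM was 1.47, 0.875 and 4.98 in sham, against 0.626, 0.406 and 0.363 in ischemia. The groups did not overlap, although sham replicate 2 was close to ischemia replicate 1. The Aspn row had a log2 fold change of -2.40 ± 0.66 (SE; edgeR adjusted p 0.0743), and -1.44 without sham replicate 3. The copy row Aspnl1 had 170, 70 and 468 counts in sham and 0, 62 and 16 in ischemia. The Aspn row held 60.7%, 70.5% and 64.4% of the counts of the pair in sham, and all 122 counts, 53.7% and 79.2% in ischemia replicates 1 to 3, on both sides of the sham shares. The sum of both rows had a log2 fold change of -2.65 ± 0.65 (edgeR adjusted p 0.0582) without overlap. The gene Cenpp overlaps Ogn, Aspn and LOC103690116 on the opposite strand, with 94 to 496 counts per sample, and whether strand was used in counting is not stated.

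Decorin, the best studied member, and biglycan, its closest relative, carry chondroitin or dermatan sulfate chains. They were the most abundant members in both groups, and neither passed the test. Dcn (chromosome 7, 38742051 to 38782323, plus strand) had an FPKM of 413.5, 160.9 and 492.4 in sham and 278.8, 171.1 and 115.2 in ischemia. Sham replicate 2 lay below ischemia replicates 1 and 2 in FPKM, and below ischemia replicate 1 only in the CPM scaled for the test, where it stood at 371.3 against 529.4, 298.1 and 228.4. The log2 fold change of Dcn was -0.95 ± 0.45 (SE), with a 95% interval from -2.04 to 0.14 and an edgeR adjusted p of 0.194. With each library left out in turn it ranged from -1.39 without ischemia replicate 1 to -0.70 without sham replicate 3. Bgn (chromosome X, 157319046 to 157331204, minus strand) had an FPKM of 207.2, 96.7 and 462.3 in sham and 160.9, 100.3 and 101.3 in ischemia. Sham replicate 3 was the highest of all 6 samples. Sham replicate 2 was the lowest in FPKM, but in the CPM scaled for the test it stood at 290.8, above ischemia replicates 2 and 3 at 227.6 and 261.6. The log2 fold change of Bgn was -1.10 ± 0.52 (SE; interval -2.35 to 0.15, edgeR adjusted p 0.192), and -0.42 without sham replicate 3.

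**Figure D2:**
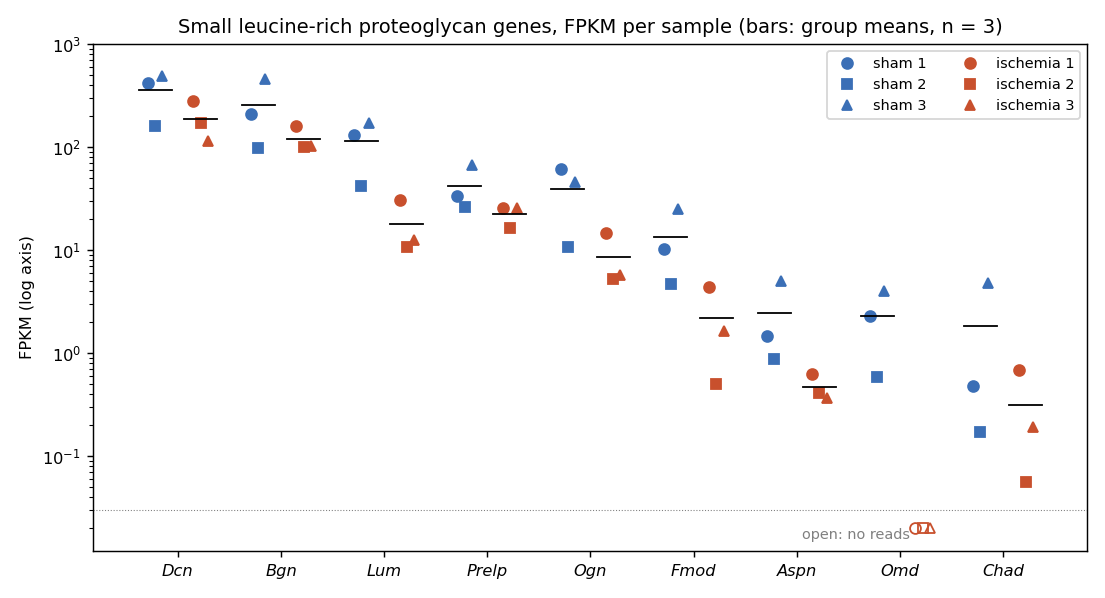
FPKM on a log axis for each of 9 members in 3 sham (blue) and 3 ischemia (orange) samples, with group means as bars and open symbols for samples without reads. Lum, Fmod, Aspn and Prelp separate the groups, whereas Dcn and Bgn overlap.

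Lumican, encoded by Lum (chromosome 7, 38819771 to 38826862, plus strand), is a keratan sulfate proteoglycan that binds fibrillar collagen and is required for a clear cornea. Its FPKM was 131.9, 41.6 and 170.4 in sham and 30.3, 10.6 and 12.5 in ischemia. Even sham replicate 2, the lowest sham sample, lay above ischemia replicate 1, the highest ischemia sample. Lum had a log2 fold change of -2.70 ± 0.61 (SE), with a 95% interval from -4.17 to -1.23. The edgeR adjusted p of 0.0510 missed the threshold of 0.05 narrowly. With each library left out in turn the log2 fold change ranged from -3.35 without ischemia replicate 1, where it passed (edgeR adjusted p 0.0244), to -2.35 without sham replicate 3, and it was -2.61 without sham replicate 1, the library with few Y-linked counts.

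Fibromodulin, encoded by Fmod (chromosome 13, 50873605 to 50885563, plus strand), is a keratan sulfate proteoglycan that binds the same region of collagen as lumican. Its FPKM was 10.2, 4.68 and 25.1 in sham, against 4.38, 0.497 and 1.64 in ischemia. The groups did not overlap, but sham replicate 2 and ischemia replicate 1 nearly met. Fmod had a log2 fold change of -2.61 ± 0.91 (SE; edgeR adjusted p 0.113), which was -1.85 without sham replicate 3 and -3.63 without ischemia replicate 1, where it passed (edgeR adjusted p 0.0487). Prelp (chromosome 13, 50749514 to 50761306, minus strand), whose product links collagen to heparan sulfate at basement membranes, had an FPKM of 33.3, 26.3 and 66.5 in sham, against 25.6, 16.4 and 25.8 in ischemia. The groups were adjacent without overlapping. The log2 fold change of Prelp was -0.93 ± 0.37 (SE; edgeR adjusted p 0.143), and -0.52 without sham replicate 3.

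Chondroadherin, encoded by Chad (chromosome 10, 82292110 to 82296651, plus strand), is a cartilage protein that binds collagen and integrins. Its FPKM was 0.473, 0.172 and 4.81 in sham and 0.691, 0.0565 and 0.192 in ischemia. Sham replicate 3 was 28.0 times sham replicate 2, and the groups overlapped. The log2 fold change was -2.48 ± 1.39 (SE; edgeR adjusted p 0.255), and -0.09 without sham replicate 3. That library also had the highest CPM for 19 of 21 cartilage, tendon and valve markers, and the part of this in the values of Chad was not tested. Acsf2, on the opposite strand, overlaps Chad and had 5783 to 19175 counts per sample.

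Of the 8 members other than Omd, 0 were higher and 0 lower at an edgeR adjusted p under 0.05, against a background of 5.18% and 1.53% of the 13964 tested genes. All 8 log2 fold changes were below 0, against 50.1% of all genes, and their median was -2.29 against -0.001 over all genes. At an unadjusted p under 0.05 there were 5 lower members (Lum, Fmod, Ogn, Aspn and Prelp), where 14.2% of all genes were lower. Ischemia lay below sham without overlap for 4 members, against 19.1% of all genes in that direction. DESeq2 called Lum, Fmod, Ogn and Aspn lower, at a background of 12.5%. Without ischemia replicate 1, edgeR called Lum, Fmod and Ogn, at a background of 7.98%. Without sham replicate 1 the median of the 8 members was -2.18, without sham replicate 2 it was -2.68, and without sham replicate 3 it was -1.07, with all 8 below 0 each time and 0 called by edgeR.

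**Figure D3:**
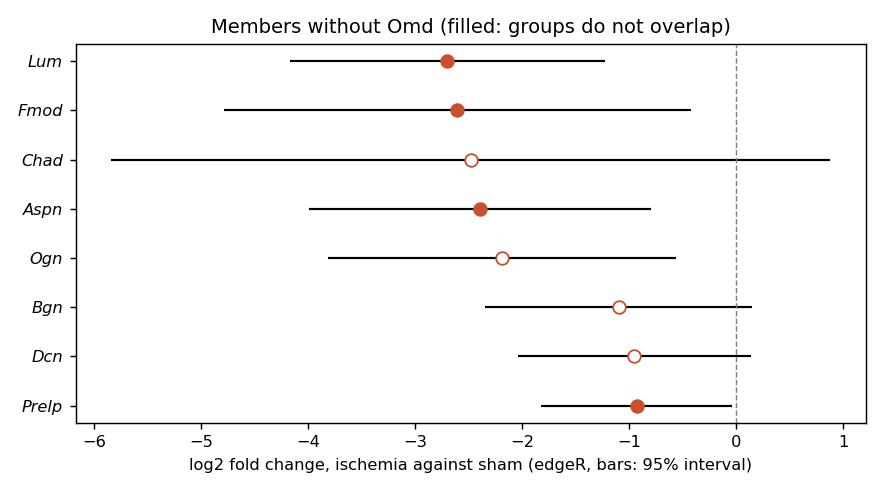
Log2 fold change (ischemia against sham, edgeR) of the 8 members other than Omd with 95% intervals, filled where the groups did not overlap. All points lie below 0, and the intervals of Dcn, Bgn and Chad cross it.

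The members varied together among samples of the same group. Sham replicate 2 was the lowest sham sample for 9 of 9 rows, sham replicate 3 the highest for 8 of 9, and ischemia replicate 1 the highest ischemia sample for 7 of 8. Atrial markers had the same order in part, with sham replicate 2 far below the other sham samples and ischemia replicate 1 above the other ischemia samples. With the mean log2 level of the atrial markers as a covariate, the median of the 8 members moved to -0.80 and Lum to -1.76 (edgeR adjusted p 0.150), while Dcn, Bgn and Chad moved to -0.24, -0.21 and -0.18. Mesothelial and epicardial markers, none of them at 0 in all samples, had summed FPKM of 117, 52.5 and 83.5 in sham and 37.7, 6.33 and 5.11 in ischemia. Fibroblast markers summed to an FPKM of 2118, 1121 and 2357 in sham and 1130, 1064 and 877 in ischemia, with 11 of 12 log2 fold changes below 0. The exception, Vim, made up 216, 179 and 330 of these sums in sham and 335, 753 and 498 in ischemia. Of 13 tested neutrophil and monocyte markers, 10 were higher, against 5.18% of all genes, and 3 did not pass (Ncf1, Ly6g6c and Clec4e). Of the 10, 6 had a mean FPKM under 0.5 in sham and passed the filter through ischemia, so these 6 calls are not support for the list. All 10 calls were lost without sham replicate 1, 2 or 3 or ischemia replicate 3, where 0 genes were higher. The list had summed FPKM of 30.6, 69.3 and 30.1 in sham, against 1512, 4280 and 911 in ischemia. The part of these cell types in the values of the members was not tested.

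**Figure D4:**
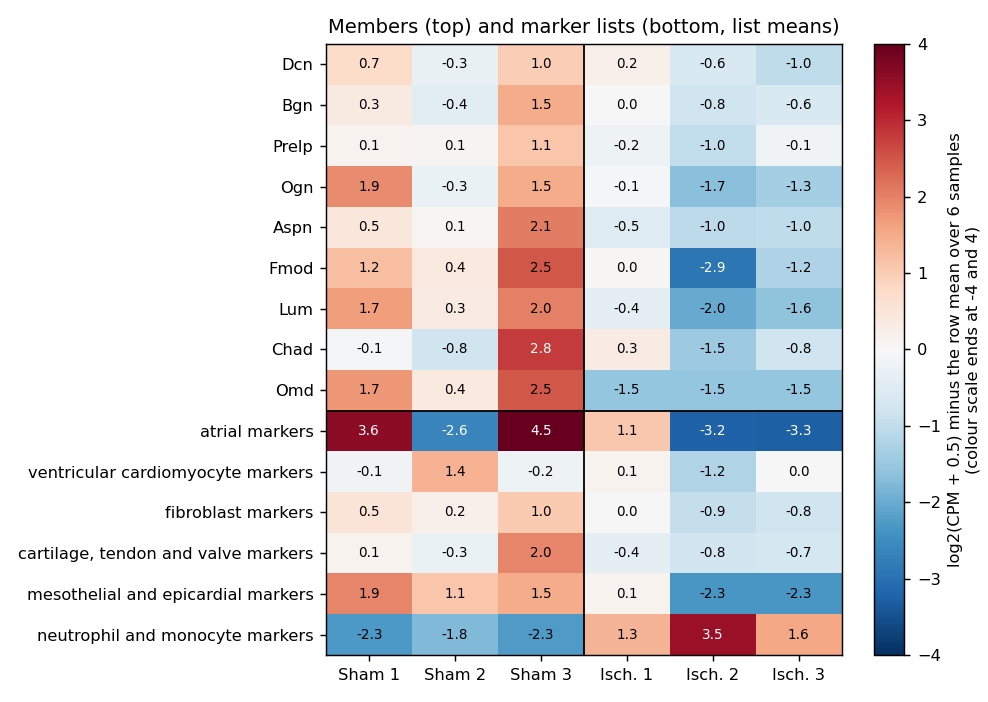
Difference of log2(CPM + 0.5) from the mean of its row over 6 samples, for 9 members (top) and for the mean of each marker list (bottom), with values printed in the cells. Sham replicate 2 is the lowest sham sample in every member row, at -0.30 for Dcn against 0.75 and 0.98, and the atrial markers stand at -2.64 there against 3.58 and 4.46.

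Because the samples differed in the level of the whole family, each member was also expressed as a percent of Dcn FPKM in the same sample, a ratio that library scaling does not change. Lum stood at 31.9%, 25.9% and 34.6% of Dcn in sham and at 10.9%, 6.18% and 10.8% in ischemia. The means were 30.8% ± 4.47 (SD, n = 3) and 9.29% ± 2.69, and sham replicate 2, low for both genes, fell in with the other sham samples. Bgn stood at 50.1%, 60.1% and 93.9% of Dcn in sham and 57.7%, 58.6% and 87.9% in ischemia, with means of 68.0% ± 22.9 (SD, n = 3) and 68.1% ± 17.2. Lumican was thus lower relative to decorin in every ischemia sample than in any sham sample, whereas the ranges of biglycan lay on top of each other.

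Fmod, Ogn and Aspn were also lower relative to Dcn without overlap. Fmod moved from 2.47% to 5.10% of Dcn in sham to 0.290% to 1.57% in ischemia, the Ogn row from 6.66% to 14.7% to 3.03% to 5.30%, and the Aspn row from 0.355% to 1.01% to 0.224% to 0.315%. Prelp overlapped, with means of 12.6% ± 4.21 (SD, n = 3) and 13.7% ± 7.49, and so did Chad. In all, 4 of the 7 ratios did not overlap and were lower in ischemia, against 2.76% of all other tested genes. With 3 samples in each group the smallest p of an exact two-sided permutation test is 0.1, and no other test was made of the ratios.

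**Figure D5:**
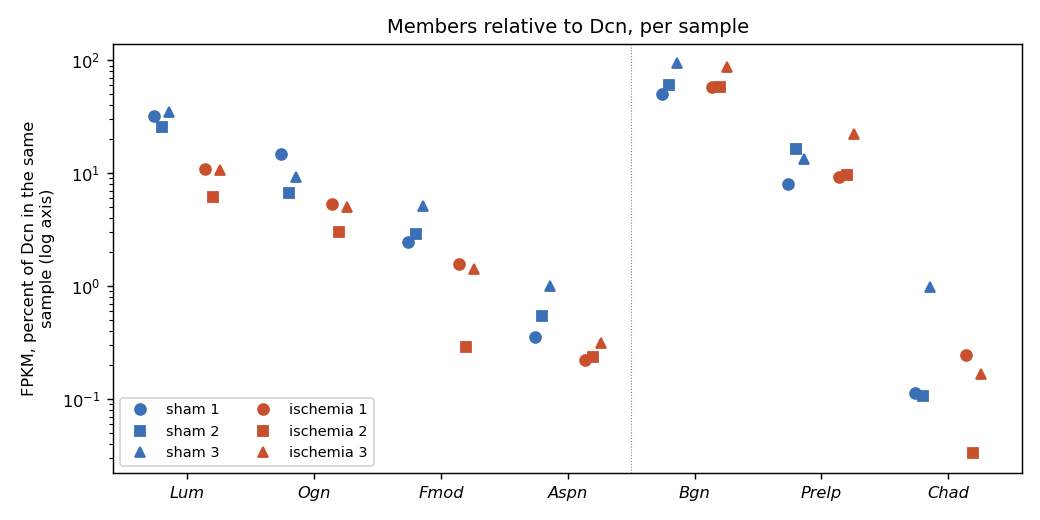
FPKM of 7 members as a percent of Dcn FPKM in the same sample, on a log axis, for 3 sham (blue) and 3 ischemia (orange) samples. The groups separate for Lum, Ogn, Fmod and Aspn (left of the dotted line) and overlap for Bgn, Prelp and Chad.

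The summed FPKM of the 9 rows was 861, 343 and 1276 in sham and 516, 305 and 263 in ischemia. Dcn and Bgn made up 72.1%, 75.2% and 74.8% of it in sham and 85.2%, 89.1% and 82.4% in ischemia, without overlap. Lum made up 15.3%, 12.1% and 13.4% in sham and 5.87%, 3.47% and 4.75% in ischemia. In mean FPKM of the single rows the order in sham was Dcn (356), Bgn (255), Lum (115), Prelp (42.0), Ogn (39.1), Fmod (13.3), Aspn (2.44), Omd (2.29) and Chad (1.82). All neighbours in that order had overlapping ranges. In ischemia Prelp (22.6) stood above Lum (17.8), with overlapping ranges, and the rest of the order was kept for the members with counts in both groups. Bgn and Prelp did not overlap there, nor did Ogn and Fmod. With both rows of a pair summed, mean FPKM in sham was 65.8 for osteoglycin, above Prelp, 4.54 for osteomodulin and 4.52 for asporin, and in ischemia 14.2, 0.165 and 0.691.

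Of 8 other family genes, 7 had a row and 3 were tested, with 0 called in either direction and a median log2 fold change of -2.24. Tsku, which encodes the secreted inhibitor tsukushi, had a log2 fold change of 0.82 ± 0.22 (SE; edgeR adjusted p 0.0657). Epyc, the gene of epiphycan, a cartilage relative of osteoglycin, had -4.02 ± 1.99 (edgeR adjusted p 0.209). Kera, the gene of the corneal proteoglycan keratocan, had no counts in any sample.

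Enzymes that build and sulfate the sugar chains were measured with 25 tested genes, of which 2 were higher and 0 lower, with a median log2 fold change of 0.33. Over all tested genes 5.18% were higher and 1.53% lower, so 2 of 25 is near the background. Chst11, which sulfates chondroitin, had an FPKM of 0.565, 0.374 and 0.612 in sham and 3.09, 11.4 and 5.26 in ischemia, and its log2 fold change was 3.57 ± 0.51 (SE; edgeR adjusted p 0.0291). B4galt1, a galactosyltransferase, rose by 0.97 ± 0.17 on the log2 scale (edgeR adjusted p 0.0366). Both were higher in all 3 ischemia samples than in any sham sample. In the fits without sham replicate 1, 2 or 3 or ischemia replicate 3, 0 genes were higher, so both calls were lost. They were also lost with the replicate block and with the atrial covariate.

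Among ligands and receptors that bind these proteoglycans, 1 of 12 tested genes was higher and 0 were lower, with a median of 1.30, which is also near the background of 5.18%. Itgb1, the integrin β chain of collagen receptors, rose from an FPKM of 97.0, 66.8 and 116 in sham to 173, 383 and 345 in ischemia (log2 fold change 1.62 ± 0.34, edgeR adjusted p 0.0478). In the fits without sham replicate 1, 2 or 3 or ischemia replicate 3, 0 genes were higher, so this call was lost. It was also lost with the replicate block and with the atrial covariate. Of 14 tested proteases known to cleave matrix proteoglycans, their processing enzymes included, 5 were higher and 0 lower, with a median of 0.70, against 5.18% and 1.53% of all genes. The aggrecanase gene Adamts4 was at an FPKM of 0.283, 0.440 and 0.485 in sham and 5.82, 63.7 and 15.3 in ischemia (log2 fold change 5.96 ± 0.97, edgeR adjusted p 0.0339). Adamts1 rose by 2.66 ± 0.50 on the log2 scale (edgeR adjusted p 0.0397), Mmp9 by 7.55 ± 1.52 (0.0444) and the collagenase gene Mmp8 by 7.63 ± 1.55 (0.0445). The gene called with the highest p was Mmp12. All 5 calls were lost in the same fits as that of Itgb1. Of these 5 genes, 4 (all but Adamts1) had a mean FPKM under 0.5 in sham and passed the filter on low values through the ischemia samples in which they were high, so their calls are not support for the list. Mmp8 also belongs to the neutrophil and monocyte list, of which 10 of 13 tested genes were higher, among them S100a8, which encodes a calcium-binding protein of neutrophils (log2 fold change 6.91 ± 1.07, edgeR adjusted p 0.0311), Csf3r (6.04 ± 0.89, 0.0298), Cd14 (3.29 ± 0.53, 0.0332) and Retnlg, which had no counts in sham and 434, 765 and 336 in ischemia. The 6 with a mean FPKM under 0.5 in sham were Csf3r, Cxcr2, Il1r2, Mmp8, Retnlg and Clec4d, and their calls are not support for that list.

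Of 9 tested collagen genes whose fibrils the family binds, 1 was lower, with a median of -0.53, where 1.53% of all tested genes were lower. With 1 gene called, neither this list nor the next ones give a result on a group. In the fits without sham replicate 1, 2 or 3 or ischemia replicate 3, 0 genes were lower. The calls of Col14a1, Pi16 and Clec3a below were thus lost there, and also with the replicate block and with the atrial covariate. Col14a1, a fibril-associated collagen, had an FPKM of 25.2, 10.9 and 26.4 in sham and 4.97, 1.60 and 1.75 in ischemia (log2 fold change -2.94 ± 0.56, edgeR adjusted p 0.0398). Of 12 tested fibroblast markers, 1 was lower, with a median of -0.96. Pi16, a marker of adventitial fibroblasts, had a log2 fold change of -2.94 ± 0.63 (edgeR adjusted p 0.0484). Of 9 tested cartilage, tendon and valve markers, 1 was lower, with a median of -2.25. Clec3a, a cartilage lectin, was at an FPKM of 0.539, 0.357 and 2.78 in sham and 0.0188 in ischemia replicate 1, and had no reads in ischemia replicates 2 and 3, so that it passed the filter through sham. Col11a2, Cilp2 and Cnmd also had a mean under 0.5 FPKM in ischemia and passed through sham, so the median of this list is a description. None of the 5 atrial, 8 ventricular and 7 mesothelial markers tested passed, with medians of -3.66, -0.69 and -3.39. The most abundant in each list were Nppa (log2 fold change -2.42 ± 1.66) and Myl4 (-3.54 ± 2.33), Actc1 (-1.70 ± 0.40) and Tnnt2 (-0.43 ± 0.43), and Msln (-2.23 ± 1.36) and Upk3b (-6.02 ± 1.34), with edgeR adjusted p-values from 0.0504 for Upk3b to 0.512 for Tnnt2.

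Among the 5 tested genes with the sample pattern nearest to that of the Omd row were Myoc, Tm4sf4, Sec14l5 and Lrrc4. Likeness was the root-mean-square difference of row-centred log2(CPM + 0.5) over the 6 samples, which was 0.314 for Myoc and 0.394 for Lrrc4. Myoc, the gene of the secreted glycoprotein myocilin, had 1866, 754 and 3543 counts in sham and 363, 279 and 164 in ischemia. The ischemia values of the Omd row are the added 0.5 alone, equal in all 3 samples, and they chose the set, so this likeness describes that row on this scale and not osteomodulin. The pattern of Dcn was nearest to those of Spint2 (0.141), Plxdc2 (0.157), Cnnm2 (0.158), Olfml2b (0.169) and Pcdh7 (0.180). Bgn stood at place 110 from Dcn, with 0.334, and Lum at place 7999, with 0.920. These values describe 6 shared libraries, and the order among near neighbours was not tested.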

How the data were processed

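Total RNA of myocardial tissue was prepared with Trizol and a stranded TruSeq kit in 6 samples, 3 sham and 3 ischemia, grouped by the labels. The table deposited by the authors gives each gene's raw counts, which are whole numbers. The FPKM values were computed by the authors, with 0.0001 written where a gene had no reads. The submitters' processing notes name STAR and HTSeq without versions. The genome build and the strand setting are not given in the sources used here, so positions are those listed in the table. Values of the authors' annotation columns other than names, positions and descriptions were not used.

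Of 32623 genes, the 13964 whose mean FPKM reached 0.5 were tested with the quasi-likelihood test of edgeR 4.0.16 in R 4.3.3 after TMM scaling, without covariates, with Benjamini-Hochberg adjustment over all tested genes and a threshold of 0.05. Tests are two-sided. The labels name no batch and do not state that each sample is a separate rat, so the p-values measure only the spread between these samples. No test or fitted fold change is given for Omd, whose fold is a bound against 3 counts per library. Shares of counts carry exact binomial (Clopper-Pearson) 95% intervals. Rows on the second chromosome 17 stretch were matched by description and order, and their sums were tested as an alternative chosen after seeing the data. The alternatives were other scalings, DESeq2 1.42.0, limma 3.58.1 on log2(FPKM + 0.1) and log2(FPKM + 1), other filters, a replicate block, an atrial covariate and each sample left out. The scripts were tested on simulated data. Figures used matplotlib 3.10.9 in Python 3.11.15.

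The members and lists were chosen with earlier results of these data known. Every member is named. From each other list, the genes called were named, at most the 4 with the smallest p. Where no gene was called, the 2 with the highest mean FPKM were named. Kera, Mmp12, Cxcr2, Il1r2, Clec4d, Ncf1, Ly6g6c, Clec4e, Myl2, Myl3, Cpne1, Cenpp, Acsf2 and the copy rows were chosen after their values were seen. A gene that the rule on pattern likeness names is not reported here. Reads were not analysed here.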

Additional observations from a re-analysis of the deposited data

How the results depend on the processing

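The log2 fold changes of the 8 members other than Omd were below 0 in all 134 values over 17 alternatives, of which 125 kept their side of the threshold, 9 newly passed it and 0 reversed. The 9 values were Lum, Fmod, Ogn and Aspn with DESeq2, Lum with limma on log2(FPKM + 0.1), Lum with a mean FPKM of at least 5, and Lum, Fmod and Ogn without ischemia replicate 1. Members lower in ischemia thus numbered 4 with DESeq2, 1 with limma on log2(FPKM + 0.1) and 1 with the higher filter, which tests 6 of the 8, against 0 in edgeR. The same settings found 262 and 291 lower genes in all, of 13964 and 8156 tested, for limma and for the higher filter. Over all tested genes, DESeq2 found 2071 higher and 1742 lower, against 723 and 214 in edgeR. Lower genes fell to 83 with total-count scaling and to 93 without a filter. With the atrial covariate 0 genes were higher and 0 lower, and 2563 had an unadjusted p under 0.05. The cause of these shifts was not tested.

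Leaving out each sample in turn gave 0 to 1490 higher and 0 to 1115 lower genes, and 0 to 3 lower members. The counts were 0 without sham replicate 1, 2 or 3 or ischemia replicate 3, where 3020 to 3809 genes had an unadjusted p under 0.05. The bound of the Omd row ranged from 71.8-fold to 149.6-fold. With the replicate block, 0 genes were higher and 0 lower, and 3349 had an unadjusted p under 0.05. Same-numbered samples had correlations of deviations of -0.0701, -0.157 and -0.194, so no pairing by number was seen. With deviations taken from means of 3 samples, these values cannot exclude a pairing. At this depth 3 counts correspond to 0.0377 to 0.0438 CPM, which limits what can be said of the Omd row in ischemia.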
